A study of Mus musculus with 8 samples.

Results

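Complement is a set of plasma and cell-surface proteins with their receptors, and 8 genes of it were followed here in sorted myeloid cells of mice that carried MC38 tumors, a colon carcinoma line. The 8 were *C1qa*, *C1qb* and *C1qc*, which encode the chains of C1q, *C3*, *Cfb* (factor B), *Cfp* (properdin), and the receptors *C3ar1* and *C5ar1*. They were chosen by name, though with earlier results of these data known, and all 8 were found among the 32285 genes of each matrix. Their unique molecular identifiers (UMIs, each standing for 1 captured transcript) were summed by library, by hashtag label and by cell class. Cells from tumor or blood had been sorted as CD45+CD11b+Ly6Chi, the gate for monocytic suppressor cells of the myeloid line (mMDSCs). Tumors were untreated (control) or had received 1 local dose of 20 Gy (IR) 3 days earlier. Each of the 4 libraries mixed cells of adult mice with floxed *Ythdf2* (WT, hashtag B0301) and of mice with floxed *Ythdf2* plus Cre at the *Lyz2* locus (cKO, hashtag B0302), so both labels share the floxed allele. Cre at *Lyz2* acts in myeloid cells, YTHDF2 is a reader protein of m6A marks on RNA, and several mice were pooled per group. Each of the 8 groups was therefore 1 sample with no replicate, no difference between groups could be tested, and every interval below is a 95% counting interval that holds no variation between mice.

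C1q recognises antibody complexes and dying cells and starts the classical pathway, and tissue macrophages are its main source in the body. All pathways meet at C3, which is cut into a small peptide, C3a, sensed by the receptor C3ar1, and a fragment that coats targets. Factor B supplies the enzyme of the alternative pathway, properdin steadies that enzyme on surfaces, and C5ar1 senses C5a, a strong attractant of neutrophils and monocytes. In tumors, C1q is known as a marker of macrophages rather than of monocytes fresh from blood.

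In all, 26709 cells were kept, between 2138 and 4435 per group, with library medians of 3085 to 7323 UMIs per cell. *Ythdf2* went against the label, at 33.6 to 55.6 CPM (a gene's UMIs scaled by all gene UMIs of the group) in the cells labelled WT and 305 to 374 CPM in those labelled cKO. A 3′ tag outside a deleted part checks nothing, and *Lyz2*, whose locus carries Cre, went with the label, at 5616 to 14285 CPM against 83.2 to 137 CPM. WT and cKO below therefore stand for cells so labelled. Every difference between them is one between labels that *Ythdf2* counts go against and *Lyz2* counts go with. In sums over a whole group, fewer cells of a type and less RNA per cell cannot be told apart. *Ly6c2*, a gene of the sorted Ly6C antigen, was found in all 8 groups, at 155 to 1459 CPM, but 10144 of the blood cells were neutrophil-like, 491 of the tumor cells were fibroblast-like, and NK, T and B cell-like clusters were found as well. The tumor matrices shared barcodes: 7327 barcodes of the control and 4958 of the IR library had too few hashtag UMIs and were left out, and 7325 and 4955 of these carried hashtags in the other tumor matrix. A further 276 carried hashtags in both, against 11 to 27 for any other pair of libraries. Without those 276 the summed C1q log2 ratio of IR to control in cells labelled cKO was -0.97 instead of -0.95, and that of cKO to WT labels in control tumor 0.80 instead of 0.77. Free RNA in the tumor suspension held C1q, at 3470 CPM in the empty droplets of the control library and 2351 CPM in those of the IR library, against 7.43 and 3.59 CPM in blood. Its part in the levels below was not tested.

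Over all kept cells the C1q genes had the most UMIs of the members, and nearly all of these UMIs were in the tumor libraries. The order differed by group. In IR tumor cells labelled WT, *C1qc* (249 CPM) stood below *Cfb* (288 CPM) and *Cfp* (270 CPM), and in blood every chain stood below *C3*, *C5ar1* and *Cfp*. Summed over the 3 chains, C1q stood at 1990 CPM (1970 to 2009) in control tumor cells labelled WT and at 3384 CPM (3360 to 3407) in those labelled cKO. After IR it stood at 1143 CPM (1128 to 1158) and 1756 CPM (1739 to 1772). In blood the sum lay between 2.34 and 9.001 CPM over the 4 groups. All tumor groups stood above all blood groups, and within tumor both IR groups stood below both control groups.

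By chain, *C1qa* (the A chain) stood at 704.8 and 1220 CPM in the control tumor cells labelled WT and cKO and at 373 and 578 CPM after IR. *C1qb* (the B chain) stood at 799.5 and 1348 CPM in control and at 521 and 774 CPM after IR, and *C1qc* (the C chain) at 485 and 816 CPM in control and 249 and 404 CPM after IR. The 3 chains kept the same order of groups. In blood, *C1qa* was counted with 1, 7, 31 and 1 UMIs in control WT, control cKO, IR WT and IR cKO cells, and *C1qc* with 6, 18, 25 and 12 UMIs. *C1qb* was the chain seen most often in blood, at 2.01, 4.58, 6.48 and 4.83 CPM in the same order, and it held 78.3% of the 465 blood C1q UMIs against 41.6% of the tumor ones. The plot of member levels by group shows this gap between the tissues on a log axis.

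**Figure D1:**
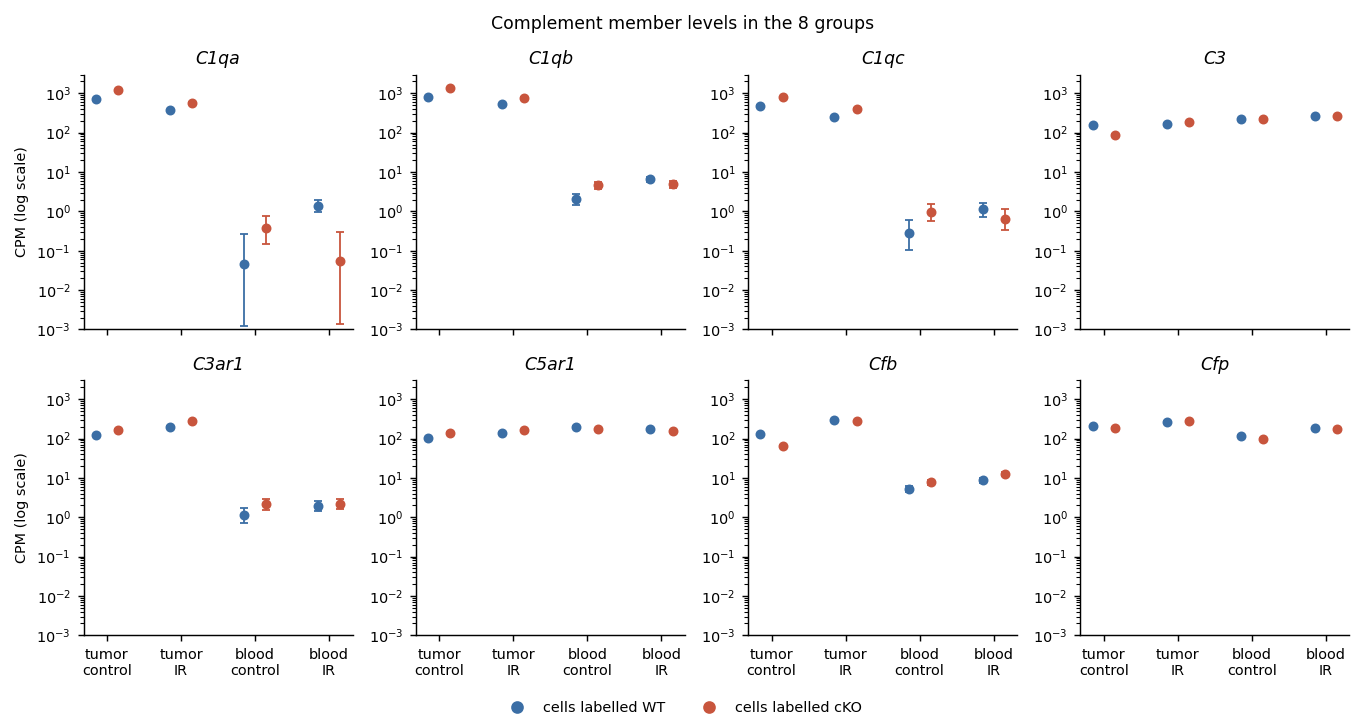
Level of each of the 8 member genes in the 8 groups, in CPM on a log axis, with points for cells labelled WT (blue) and cKO (red) and bars for 95% Poisson intervals (counting error only, 1 pooled sample per group). The C1q chains, *C3ar1* and *Cfb* sit far lower in blood than in tumor, while *C3*, *C5ar1* and *Cfp* lie between 87.8 and 282 CPM in all 8 groups.

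The C1q genes are neighbours on chromosome 4 of mm10, all on the minus strand, with *C1qb* at 136880129 to 136886187, *C1qc* at 136889804 to 136893065 and *C1qa* at 136895917 to 136898803, and the whole locus spans 18675 bases. Since the chains varied together, the promoter bases of *C1qb* and *C1qc* are shown, as RefSeq gives them for GRCm38.p6 (6 of the 8 members had an entry). Each run reads 5′ to 3′ on the minus strand, stops before the gene start of both annotations, and was taken from the 250 bases before the RefSeq start. Capitals mark the PU.1 core GAGGAA, searched on both strands, a motif bound by a regulator of myeloid genes and held by 23.3% of all 32851 promoter windows of that length. The *C1qb* run is chr4:136886201-136886450 and the *C1qc* run is chr4:136893066-136893164.
C1qb: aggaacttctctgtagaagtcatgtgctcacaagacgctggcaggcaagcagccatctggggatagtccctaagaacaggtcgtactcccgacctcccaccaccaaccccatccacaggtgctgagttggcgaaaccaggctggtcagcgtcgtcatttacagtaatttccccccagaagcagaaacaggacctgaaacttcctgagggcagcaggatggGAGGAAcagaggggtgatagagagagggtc
C1qc: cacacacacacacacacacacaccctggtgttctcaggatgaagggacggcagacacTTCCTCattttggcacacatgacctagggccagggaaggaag
The match lay 30 bases before the RefSeq start in *C1qb* and, on the reverse strand, 193 bases before it in *C1qc*. At this share of all promoters a match is a description of the letters.

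Within tumor, C1q was concentrated in a few clusters of cells. The clusters were drawn from genes other than the members, the other complement genes, *Ythdf2* and *Lyz1* or *Lyz2*, so the C1q level of a cluster was not used to form it, although genes that vary with C1q were. A level given for a tumor cluster without a group is pooled over the 4 tumor groups, which took different shares of each cluster. Cluster 9, macrophage-like by *Adgre1*, *Mrc1*, *Apoe*, *Trem2*, *Mertk*, *Ms4a7*, *Maf* and *Lgmn*, held 6.47% of the tumor cells and 42.6% of the tumor C1q UMIs, at 9461 CPM. Cluster 5, unnamed and led by *Cdh1*, *H2-Eb1*, *H2-Ab1* and *Cxcl9*, stood at 2719 CPM and held 32.5% of the UMIs. Cluster 3, macrophage-like by *Mrc1*, *Maf* and *Lgmn* and led by *Mmp13* and the interferon-response genes *Rsad2* and *Ifit2*, stood at 1991 CPM and held 19.8%. Cluster 5 stood above cluster 3 in 3 of the 4 groups, but in IR cells labelled cKO it stood at 2368 CPM and cluster 3 at 2563 CPM.

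Cluster 7 (median 1492 UMIs, with mitochondrial genes among its leading genes) stood at 1790 CPM. In control it stood at 2243 and 2852 CPM in WT and cKO, above cluster 3 (1064 and 2045 CPM), and after IR at 1073 and 1437 CPM, below it. The remaining tumor clusters stood lower, cluster 11 (led by *Cd209a*) at 401 CPM, cluster 4 (led by *Cxcl10*) at 239 CPM and cluster 12 (led by *Ccl3*) at 213 CPM. Cells that should lack C1q gave the background: 33.2 CPM in NK cell-like, 53.5 CPM in T cell-like and 27.3 CPM in fibroblast-like tumor cells. In share of cells with a C1q UMI, 96.9% of cluster 9 carried one, against 10.3% of the tumor NK cell-like cells, at median depths of 10650 and 2486 UMIs. Thinned to 1000 UMIs per cell, the shares were 93.4% and 4.14%. Over all tumor cells, a C1q UMI was found in 44.1% and 58.5% of the control cells labelled WT and cKO and in 35.8% and 44.1% of the IR cells, or in 30.8%, 45.05%, 24.1% and 31.6% after thinning.

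**Figure D2:**
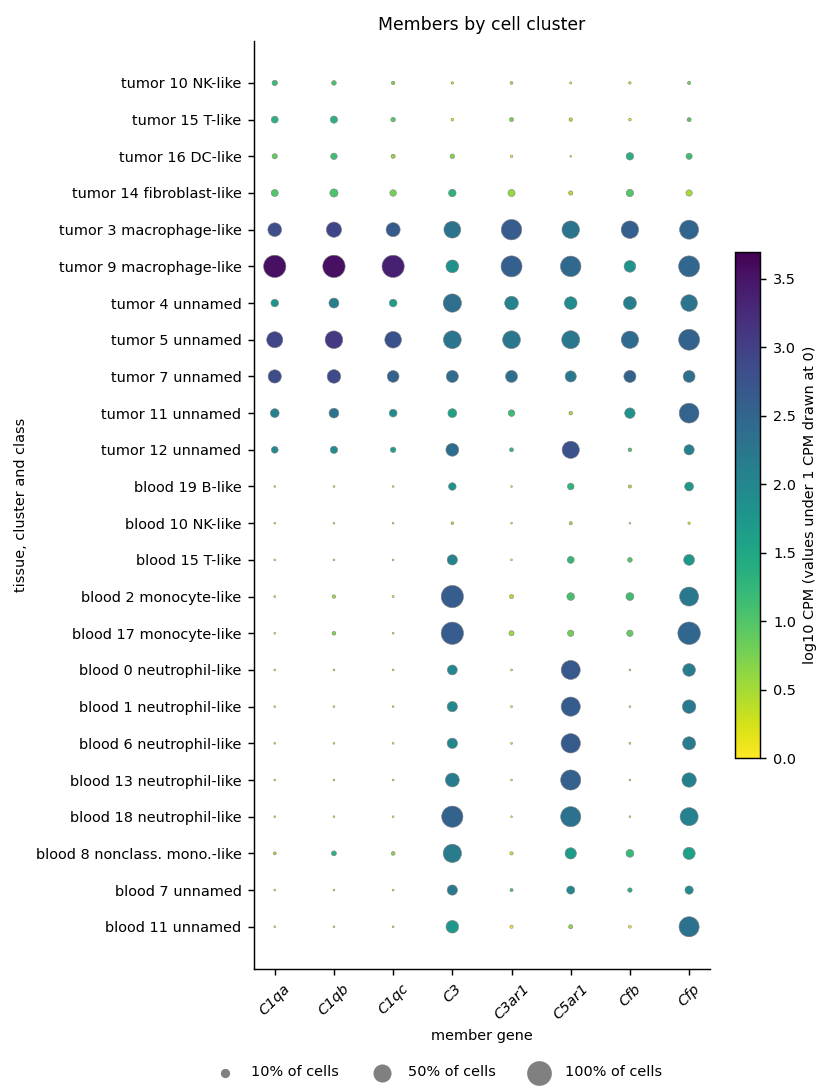
Dot map of the 8 members (columns) in the clusters of each tissue (rows, with their class), in which dot area gives the share of cells with a UMI and colour gives log10 CPM. C1q is highest in tumor cluster 9 (9461 CPM over the 3 chains), *C3* in the monocyte-like clusters of blood and *C5ar1* in the neutrophil-like clusters of blood and in tumor cluster 12.

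Of the 11551 tumor cells, 2855 carried all 3 C1q chains, 749 carried 2, 1536 carried 1 and 6411 none. Of the 747 tumor cells of cluster 9, 691 (92.5%) carried all 3 chains and 23 (3.08%) none. In cluster 5, 43.1% carried all 3 and 35.2% none, and in cluster 3 the shares were 29.7% and 50.2%. In cluster 4 they were 4.90% and 75.0%. In clusters 4, 7, 11 and 12, cells with 1 chain outnumbered cells with 3, at 382 against 122, 177 against 172, 91 against 34 and 83 against 9. Of the 339 NK cell-like tumor cells, 35 carried 1 chain and the others none, at a median depth of 2486 UMIs. In each tumor group, 3.97% to 8.70% of the cells held 50% of the C1q UMIs.

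**Figure D3:**
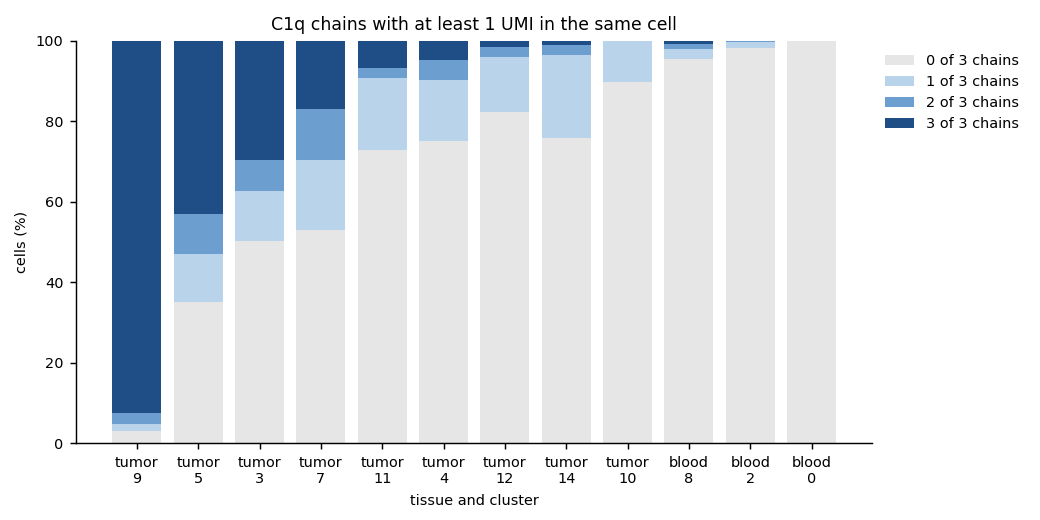
Stacked bars of the share of cells with at least 1 UMI of 0, 1, 2 or 3 C1q chains, for 9 tumor clusters and 3 blood clusters. In tumor cluster 9, 92.5% of the cells carry all 3 chains, while NK cell-like cells of tumor (cluster 10) carry at most 1.

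IR groups had less C1q than control groups in tumor. On the log2 scale, IR against control gave -0.80 (-0.82 to -0.78) for cells labelled WT and -0.95 (-0.96 to -0.93) for cells labelled cKO, and by chain it ran from -0.62 for *C1qb* to -0.96 for *C1qc* in WT and from -0.80 for *C1qb* to -1.08 for *C1qa* in cKO. A ratio past 1 in either direction on the log2 scale, a 2-fold difference, was taken as the limit for a call. Over all genes tested (100 or more UMIs over both groups) the median log2 ratios were -0.13 and -0.18. Cluster 9 moved with this result: it made up 6.94% of the control cells labelled WT and 22.2% of those labelled cKO, but 1.31% and 1.53% after IR. Cluster 3 made up 10.8% and 5.52% of control cells and 31.4% and 34.6% after IR. Clusters are drawn from genes that themselves can differ between control and IR, so cells leaving a state and cells changing state cannot be told apart.

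Within clusters the direction was mixed. In cluster 3 the C1q sum was higher after IR, at 1445 against 1064 CPM in WT (log2 ratio 0.44, 0.37 to 0.51) and at 2563 against 2045 CPM in cKO (0.33, 0.26 to 0.40). The WT rise was not seen in cluster 3 cells with at least 4 times as many B0301 as B0302 UMIs. These stood at 1530 CPM (1453 to 1611) in control and 1470 CPM (1439 to 1501) after IR. In cluster 5 the C1q sum was lower after IR, by log2 ratios of -0.25 (-0.29 to -0.21) in WT and -0.51 (-0.54 to -0.48) in cKO, and in cluster 9 by -0.31 (-0.36 to -0.26) in cKO, where 58 IR cells were compared with 474. WT cells of cluster 9 were under 50 after IR and gave no value. In cluster 7 it was lower after IR by -1.06 (-1.22 to -0.91) in WT and -0.99 (-1.12 to -0.86) in cKO. In 2 clusters the labels differed in sign, cluster 4 at -0.73 in WT and 0.42 in cKO and cluster 11 at 0.79 in WT and -0.56 in cKO. These ratios rest on few cells, which counting intervals do not show. The decile of cells with the most C1q held 93.1% to 95.2% of the UMIs in the groups of cluster 11 and 86.3% to 88.9% in those of cluster 4. In cluster 11, 6 to 11 cells per group carried all 3 chains. Over the clusters with enough cells and UMIs, 2 were higher and 3 lower in WT and 2 higher and 4 lower in cKO. With cluster 9 left out of all groups, a choice made after the data were seen, the C1q ratio was -0.090 in WT and 0.26 in cKO. The lower level over all cells was thus nearly gone in WT without that cluster, and in cKO the sign turned.

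**Figure D4:**
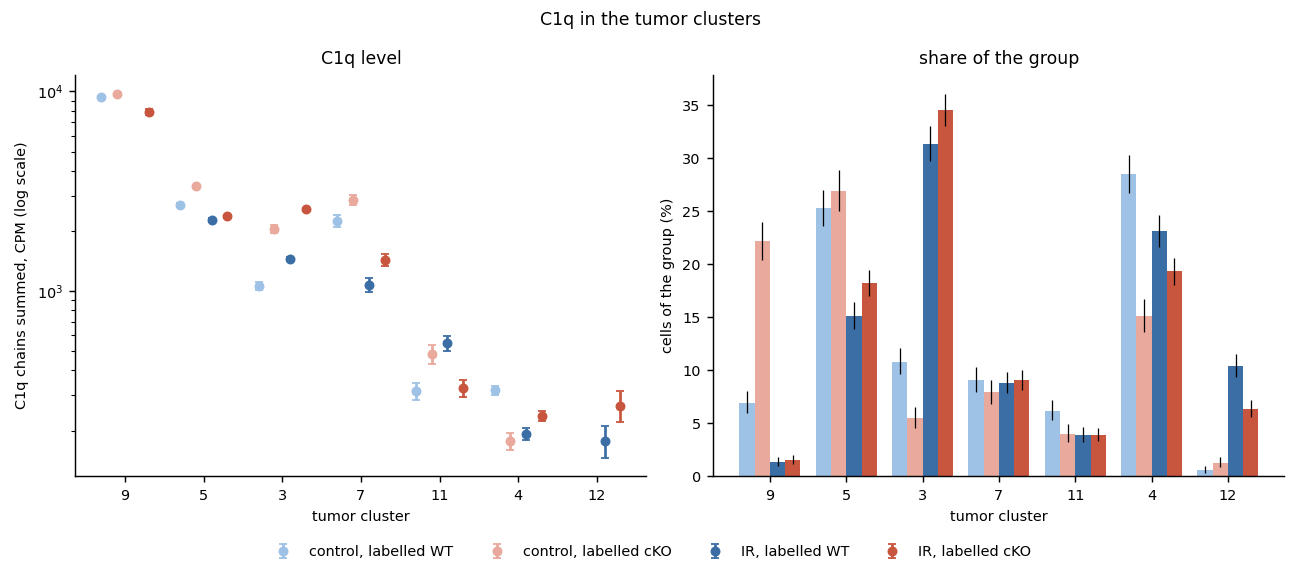
Left, summed C1q level (CPM, log axis) in 7 tumor clusters for the 4 tumor groups, with 95% Poisson intervals, and right, the share of each group's cells in these clusters (percent, with exact binomial intervals); groups of under 50 cells in a cluster have no level. Cluster 9 has the highest C1q in every group with a value (7884 to 9767 CPM) and makes up 22.2% of the control cells labelled cKO but under 2% after IR.

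Macrophage-like cells as a class (clusters 3 and 9) showed the same mixture. Their C1q stood at 5604 CPM in control and 1631 CPM after IR in WT (log2 ratio -1.78) and at 8760 and 2789 CPM in cKO (-1.65), but most of the control cells with C1q were of cluster 9 and most of the IR cells of cluster 3. Without cluster 9 the ratios were 0.44 and 0.33, and the WT one rests on the hashtag rule, as given for cluster 3.

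Cells labelled cKO, in which *Ythdf2* was the higher, had more tumor C1q than cells labelled WT, with a log2 ratio of 0.77 (0.75 to 0.78) in control and 0.62 (0.60 to 0.64) after IR. In control the clusters moved with it, since 22.2% of the cKO cells and 6.94% of the WT cells fell in cluster 9, and within cluster 9 the levels were close, at 9767 and 9390 CPM (0.06, 0.03 to 0.08). Cluster 3 had more C1q in the cKO label both in control (0.94, 0.85 to 1.04) and after IR (0.83, 0.79 to 0.86), and cluster 5 in control only by a small amount (0.32, 0.29 to 0.35) and after IR by 0.06 (0.02 to 0.10). Cluster 4 stood lower in cKO in control, at -0.85 (-1.02 to -0.69), and higher after IR, at 0.30 (0.17 to 0.43). Cluster 11 stood higher in cKO in control, at 0.61 (0.40 to 0.82), and lower after IR, at -0.74 (-0.94 to -0.56). As given above, the C1q UMIs of clusters 4 and 11 lay in few cells of each group, so these changes of sign rest on few cells. Of the clusters with enough cells and UMIs, 6 of 7 in control and 5 of 6 after IR were higher in cKO and 1 was lower in each. The 6 in control include the fibroblast-like cluster 14 (1.78, 306 against 41 UMIs), whose cells were taken above as background. Of its 250 control cells labelled cKO, 4 carried all 3 chains, and the decile with the most C1q held 87.9% of the 306 UMIs.

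The control difference rested on how the WT label was read. Of the control tumor cells labelled WT, 1002 had at least 4 times as many B0301 as B0302 UMIs and gave 3136 CPM of C1q (3100 to 3172), while 1507 had a smaller excess and gave 1018 CPM (999 to 1037). The former had 13.3% of their cells in cluster 9 and 39.5% in cluster 5, the latter 2.72% and 15.9%, with 39.3% in cluster 4. Within cluster 3 the former stood at 1530 CPM of C1q and the latter at 485 CPM. Median hashtag UMIs were 1004 and 545. With the 4-fold rule for WT as well, the log2 ratio in control tumor was 0.11 instead of 0.77, and after IR 0.51 instead of 0.62. *Lyz2* stood at 7218 CPM in the cells with a smaller excess and at 6488 CPM in the others, both far above the cells labelled cKO. Fibroblast-like cells, which made up 4.58% of the control WT and 11.7% of the control cKO cells and have many UMIs, moved it the other way: without them the control ratio was 1.02.

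Blood C1q came from very few cells. Of the 465 blood UMIs, 66.7% were in nonclassical monocyte-like cells (cluster 8), which stood at 29.2 CPM (26.1 to 32.7) and of which 47 of 1045 carried a C1q UMI, while monocyte-like cells stood at 3.99 CPM and 10144 neutrophil-like cells gave 1 UMI. In each blood group, 3 to 5 cells held 50% of the UMIs. In the IR WT group 1 cell of cluster 8 held 55 of 200 UMIs, 14 of *C1qa*, 33 of *C1qb* and 8 of *C1qc*. Without the cells of 10 or more C1q UMIs the blood groups stood at 1.36 and 3.59 CPM in control WT and cKO and at 2.31 and 3.76 CPM after IR. *C1qb* was past the 2-fold limit in blood in 2 comparisons, IR against control in WT (log2 ratio 1.66, 1.19 to 2.21) and cKO against WT in control (1.17, 0.64 to 1.75). The C1q UMIs of the blood groups came from 15 and 27 cells in control WT and cKO and from 37 and 21 after IR.

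*C3*, the component on which all pathways meet, was spread over both tissues. It stood at 155 and 87.8 CPM in control tumor cells labelled WT and cKO, at 169 and 184 CPM in IR tumor cells, at 217 and 225 CPM in control blood and at 259 and 265 CPM in IR blood. The control tumor cells labelled cKO stood below all other groups, and the blood groups stood above all tumor groups. Blood monocyte-like cells had the highest level, at 414 CPM, and 94.4% of cluster 2 carried a UMI. The class held 74.1% of the blood *C3* UMIs. Neutrophil-like blood cells stood at 104 CPM and nonclassical monocyte-like cells at 152 CPM.

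In tumor cluster 9, where C1q was highest, *C3* stood at 78.8 and 60.3 CPM in control WT and cKO and at 68.0 CPM in IR cKO. Cluster 3 stood at 152 and 85.7 CPM in the same control groups and at 221 CPM in IR cKO, and cluster 4 at 245, 243 and 222.5 CPM. For IR against control the log2 ratio was 0.12 (0.05 to 0.19) for WT and 1.07 (0.99 to 1.14) for cKO, and the cKO to WT ratio was -0.82 (-0.90 to -0.74) in control and 0.12 (0.06 to 0.19) after IR. Inside cluster 3 the cKO label went from 85.7 CPM in control to 221 CPM after IR (1.37, 1.03 to 1.73) and the WT label from 152 to 193 CPM (0.34, 0.15 to 0.54), though the make-up of cluster 3 differed between the conditions, as given for *Cfb*. In cluster 4 neither ratio stood clear of 0, at -0.10 (-0.23 to 0.02) and -0.13 (-0.28 to 0.03). Without fibroblast-like cells, which had 20.7 CPM of *C3*, the IR ratio in cKO was 0.73 and no longer past the limit, and without cluster 9 it was 0.95. Without fibroblast-like, NK, T, B and basophil or mast cell classes the IR ratio in WT was -0.040.

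Since *C3* and its receptor *C3ar1* differed in tissue, with *C3* higher in blood and *C3ar1* almost absent there, their promoter bases are shown, again from RefSeq GRCm38.p6 on the minus strand, 5′ to 3′. Capitals mark a C/EBP motif, TTGCNNAA, in *C3* and an AP-1 motif, TGANTCA, in *C3ar1*, both searched on both strands in the 250 bases before each start and held by 9.56% and 6.75% of all promoter windows. The *C3* run is chr17:57228137-57228386 and the *C3ar1* run is chr6:122856162-122856407.
C3: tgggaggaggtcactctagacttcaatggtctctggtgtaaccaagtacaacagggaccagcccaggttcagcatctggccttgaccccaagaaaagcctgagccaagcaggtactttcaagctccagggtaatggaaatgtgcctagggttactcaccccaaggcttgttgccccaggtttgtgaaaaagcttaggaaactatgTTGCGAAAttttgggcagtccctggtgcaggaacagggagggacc
C3ar1: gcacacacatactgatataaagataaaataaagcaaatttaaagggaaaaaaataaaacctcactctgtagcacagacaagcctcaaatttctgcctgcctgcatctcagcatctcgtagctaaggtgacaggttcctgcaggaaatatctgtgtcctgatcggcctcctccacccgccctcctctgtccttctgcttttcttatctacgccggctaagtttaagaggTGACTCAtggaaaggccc
The matches lay 45 and 22 bases before the RefSeq starts. *C5ar1* and *Cfp* held none of the PU.1, C/EBP and AP-1 letters in this window, and *C1qa* and *Cfb* had no entry.

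*Cfb* showed the largest IR ratio of the members in tumor. It stood at 128 and 64.9 CPM in control tumor cells labelled WT and cKO and at 288 and 278 CPM after IR, with both IR groups above both control groups. In blood it stood at 5.25 and 7.63 CPM in control and 8.60 and 12.6 CPM after IR. IR against control gave log2 ratios of 1.17 (1.11 to 1.24) for WT and 2.10 (2.02 to 2.18) for cKO in tumor, and 0.71 (0.37 to 1.06) and 0.71 (0.41 to 1.03) in blood. In cKO against WT, *Cfb* was lower in control tumor (-0.98, -1.07 to -0.89) and close after IR (-0.05, with an upper bound just under 0).

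Within most clusters *Cfb* was also higher after IR. In cluster 3 it stood at 97.4 CPM in control and 476 CPM after IR in WT (log2 ratio 2.29, 2.07 to 2.52) and at 70.4 and 404 CPM in cKO (2.52, 2.15 to 2.91). Cluster 3 itself differed in make-up. In a finer clustering (resolution 1.2), a division chosen after the data were seen, a subset led by the interferon-response genes *Ifit2*, *Rsad2* and *Isg15* held 11.1% and 7.63% of its control cells (WT and cKO) and 63.1% and 53.4% of its IR cells. In that subset *Cfb* stood at 691 and 659 CPM after IR and 480 and 657 CPM in its 30 and 9 control cells, too few for a ratio. In the other large subset, led by *Hspa1a* and *Mmp13*, *Cfb* went from 46.0 to 146 CPM in WT (1.66, 1.30 to 2.06) and from 26.5 to 124 CPM in cKO (2.21, 1.5998 to 2.93). There *C3* gave 0.65 in WT and 1.47 in cKO, and the C1q sum 0.38 and 0.37. In cluster 5 the *Cfb* ratios were 0.63 (0.53 to 0.73) and 1.33 (1.21 to 1.45). Of the tumor clusters with enough cells and UMIs, 4 of 5 in WT and 6 of 6 in cKO had an interval above 0, and cluster 4 in WT did not, at -0.14 (-0.30 to 0.02). Cluster 9 had 52.9 and 58.4 CPM of *Cfb* in control WT and cKO, against 97.4 and 70.4 CPM in cluster 3, and 117 CPM in IR cKO. Among the named blood classes *Cfb* was highest in nonclassical monocyte-like (16.3 CPM) and monocyte-like (13.6 CPM) cells, with 0.13 CPM in neutrophil-like cells, and in cluster 2 its IR ratios were 0.61 and 0.63.

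*Cfp*, the gene of properdin, was found in most myeloid clusters of both tissues. It stood at 206 and 186 CPM in control tumor, 270 and 282 CPM in IR tumor, 116 and 99.7 CPM in control blood and 183 and 173 CPM in IR blood, for WT and cKO in turn. In each tissue both IR groups stood above both control groups. The IR log2 ratios were 0.39 (0.33 to 0.45) and 0.60 (0.55 to 0.66) in tumor and 0.65 (0.58 to 0.72) and 0.79 (0.71 to 0.88) in blood, none past the limit. The cKO tumor ratio takes in fibroblast-like cells, which have many UMIs and were 11.7% of control and 1.24% of IR cells. Without them the cKO to WT ratio of *Cfp* in control tumor was 0.11 instead of -0.15. Of the tumor clusters with enough cells and UMIs, 3 of 5 in WT and 4 of 6 in cKO had an IR interval above 0, and 0 below. In blood the monocyte-like cluster 2 had ratios of 0.80 (0.69 to 0.91) in WT and 0.80 (0.68 to 0.93) in cKO, from 123 and 112 CPM to 214 and 195 CPM. The highest *Cfp* levels were in tumor clusters 5 (339 CPM), 11 (334 CPM, 74.7% of cells), 3 (319 CPM, but 180 and 235 CPM in control WT and cKO) and 9 (308 CPM), and in blood in cluster 17, monocyte-like cells led by cell division genes (303 CPM, 96.4% of cells). NK cell-like cells gave 6.65 CPM in tumor and 1.40 CPM in blood.

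The receptors divided between tissues and cell types. *C3ar1* stood at 122 and 168 CPM in control tumor and at 197 and 277 CPM in IR tumor, but at 1.12 and 2.16 CPM in control blood and 1.98 and 2.20 CPM in IR blood. *C5ar1* stood at 101 and 142 CPM in control tumor, 140 and 161 CPM in IR tumor, 201 and 173 CPM in control blood and 173 and 159 CPM in IR blood. The tissue gap thus held for *C3ar1*, whose log2 ratio of tumor to blood in control WT cells was 6.70 (6.18 to 7.40), while *C5ar1* gave -0.996 (-1.07 to -0.92), just short of the limit.

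*C3ar1* was highest in the macrophage-like clusters 3 (416 CPM, 79.5% of cells) and 9 (396 CPM, 84.1%), with 169 CPM in cluster 5 and 18.2 CPM in cluster 12. IR against control gave 0.70 (0.62 to 0.77) in WT and 0.72 (0.66 to 0.78) in cKO. Within cluster 5 the ratios were 0.87 and 0.65, within cluster 3 0.16 and 0.28 (-0.12, -0.29 to 0.04, in WT and 0.26 in cKO for its subset led by *Hspa1a* and *Mmp13*), and within cluster 9 in cKO -0.38 (-0.64 to -0.13). The cKO to WT ratios of *C3ar1* after IR lay between 0.36 and 0.47 in the 4 tumor clusters with enough UMIs, and each of the 4 intervals was above 0. Without cluster 9 its cKO to WT ratio in control was -0.13 instead of 0.47, and its IR ratios were 1.03 in WT and 1.66 in cKO, past the limit. The all-cell IR ratio in cKO also takes in fibroblast-like cells, which were 11.7% of control and 1.24% of IR cells. In the same comparison, leaving those cells out lowered the *C5ar1* ratio from 0.19 to -0.25. The like IR ratios of *C3ar1* in WT and cKO over all cells are therefore not a like rise within cells.

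*C5ar1* was highest in tumor cluster 12 (583 CPM, 56.4% of cells), a cluster of low depth that made up 10.4% and 6.35% of the IR tumor cells and 0.56% and 1.26% of the control ones, and in the neutrophil-like cells of blood (446 CPM), which held 93.0% of the blood *C5ar1* UMIs. Blood monocyte-like cells gave 11.9 CPM, below the 85.6 to 289 CPM of tumor clusters 3, 4, 5 and 9. The IR ratios were 0.47 (0.39 to 0.56) and 0.19 (0.12 to 0.25) in tumor and -0.22 (-0.28 to -0.15) and -0.13 (-0.20 to -0.05) in blood. The tumor ratio in cKO was -0.25 without fibroblast-like cells and 0.83 without cluster 9. Blood *C5ar1* levels are thus largely those of neutrophil-like cells.

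**Figure D5:**
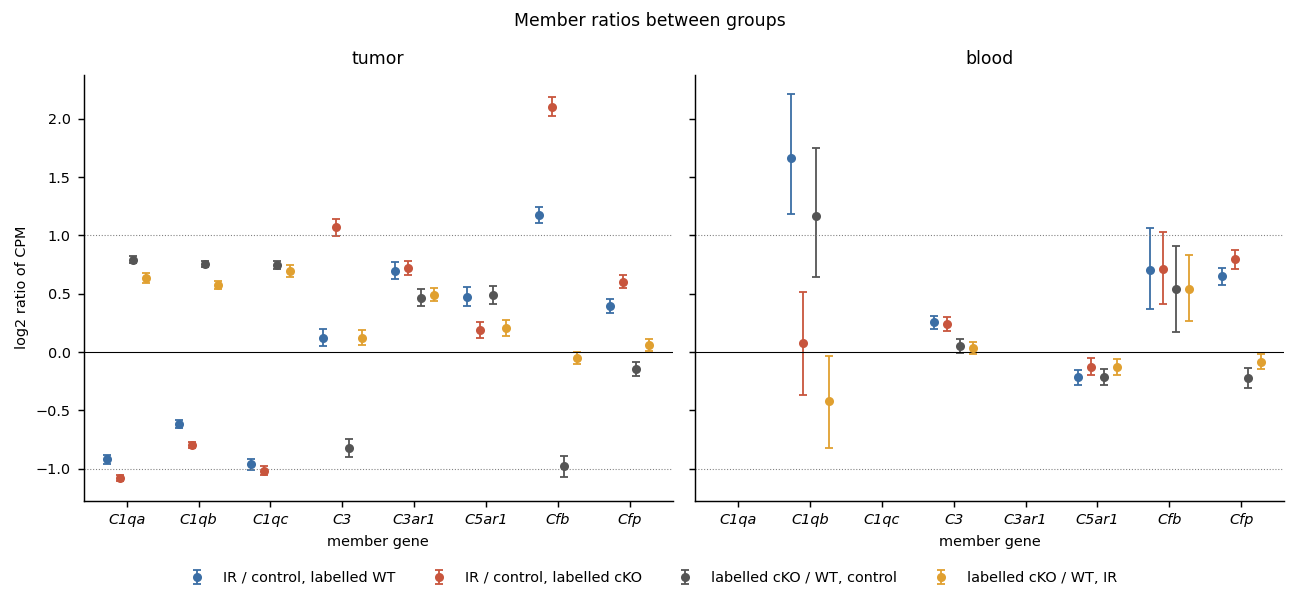
Log2 ratios of CPM for the 8 members in tumor (left) and blood (right), for IR against control within each label and for cKO against WT labels within each condition, with 95% counting intervals and dotted lines at the limit of 1 in either direction; genes under 100 UMIs are left out. *Cfb* after IR in tumor cells labelled cKO, at 2.10, is the largest tumor ratio, and in tumor the C1q chains lie below 0 for IR and above 0 for cKO against WT.

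Counted against the limit of a 2-fold difference (1 on the log2 scale), the members stood near or above the share of all genes. For IR against control in tumor, 1 of 8 tested members was called in WT (*Cfb*), where 5.93% of all tested genes were, and 4 of 8 in cKO (*C1qa* and *C1qc* lower, *C3* and *Cfb* higher), where 22.3% were. Without fibroblast-like cells it was again 4 of 8 in cKO (the 3 C1q chains and *Cfb*), where 10.2% of genes were called. With TMM scaling *C1qa* (-0.86) and *C1qc* (-0.80) were not past the limit in cKO. In macrophage-like tumor cells the counts were 4 of 8 in WT, where 11.8% of genes were called, and 5 of 8 in cKO, where 20.9% were, with the 3 C1q chains lower and *Cfb* higher in both and *C3* higher in cKO. For cKO against WT labels, 0 of 8 members were called in control tumor and 0 of 8 in IR tumor, where 4.8% and 1.25% of genes were, and 0 of 8 in macrophage-like cells of either, where 3.61% and 0.304% were. No p-value exists for these counts, as there is 1 sample per group.

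In blood 5 of the 8 members had enough UMIs. IR against control called 1 of 5 in WT (*C1qb*) and 0 of 5 in cKO, where 1.29% and 1.39% of genes were called, and cKO against WT called 1 of 5 in control (*C1qb*) and 0 of 5 after IR, where 2.22% and 0.633% were. Tumor against blood in control WT cells called 5 of 8, all higher in tumor, where 35.3% of genes were called. The largest was *C1qa*, with a log2 ratio of 12.9 and an interval from 11.4 to 19.2 against 1 blood UMI.

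The other complement genes were less abundant, and of 40 listed, 10 to 13 had enough UMIs in a comparison. In tumor, 0 were higher and 2 lower after IR in both labels: *Fcna*, a ficolin of the lectin pathway made by macrophages, at -1.67 in WT and -1.97 in cKO, and *Cd55*, a membrane regulator that breaks up convertases, at -1.28 and -1.41. In blood, *Fcnb*, a ficolin of myeloid precursors, was higher after IR in WT (1.87, from 4.08 to 14.99 CPM), and *Cd55* was lower after IR in cKO (-2.16). For cKO against WT, 0 of 13 were past the limit in control tumor, 0 of 12 in IR tumor, 0 of 10 in control blood and 1 of 10 in IR blood, *Cd55* at -1.26. Tumor against blood in control WT cells called 5 higher, among them *C1ra* (2.87) and *C4b* (3.01) of the classical pathway and *Fcna* (2.98), and 3 lower, *C5ar2* (-3.29), another receptor of C5a, *Cd46* (-4.14) and *Cr1l* (-1.02).

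Across 64 units of library, label and cluster with 50 or more cells, which share libraries, depth and free RNA, the C1q chains followed each other with Pearson's r of 0.99 on log2(CPM + 10). *C3ar1* followed them with r of 0.91 to 0.92 and *Cfb* with 0.82 to 0.87, while *C3* and *C5ar1* gave 0.17 to 0.25 with the C1q chains. The units take in tumor and blood, and C1q, *C3ar1* and *Cfb* all stood far lower in blood, so these r values hold the tissue gap. No r was computed within tumor, where both IR groups stood below both control groups in C1q but above them in *Cfb*. Outside the members, *Mmp12* (a macrophage elastase) was most like *C1qa* (0.95) and *C1qc* (0.94), *Rasgef1b* most like *C1qb* (0.95), *Soat1* most like *C3* (0.90), *Lrp12* most like *C3ar1* (0.97), *Clec4d* most like *C5ar1* (0.94), *Mmp19* most like *Cfb* (0.96) and *Tbxas1*, thromboxane synthase, most like *Cfp* (0.85). These are descriptions over units that are not independent.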

How the data were processed

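Sorted cells of 4 libraries, each holding WT and cKO cells marked by hashtag antibodies, were measured by droplet 3′ RNA sequencing. The deposited matrices hold raw UMI counts, which the authors made with Cell Ranger (6.0.1 in the submitters' processing notes, 4 in the file headers) on mm10. Library totals were 51653956 to 87703837 gene UMIs. The members and gene lists were chosen with earlier results of these data known.

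Barcodes of 500 or more UMIs were called cells by an order-of-magnitude threshold or a test against the profile of empty droplets, and kept with at least 200 genes, at most 25% mitochondrial UMIs and at least 20 hashtag UMIs. Cells were labelled WT where B0301 was at least B0302, and cKO where B0302 was at least 4 times B0301. Scrublet (scanpy 1.11.5) called 1 to 8 doublets per library and so had not worked, and the 6% of cells with the highest scores were removed instead. Counts were scaled to CPM, with exact Poisson intervals. Log2 ratios had 1 UMI added, with exact binomial intervals. The ratio code was tested on simulated data. Cells were clustered in Seurat 5.3.0 (R 4.3.3) on 2000 variable genes and 40 components at resolution 0.8, without the complement genes, *Ythdf2*, *Lyz1* and *Lyz2*. Clusters were named from fixed marker lists, and those with fewer than 3 raised markers stayed unnamed. All 8 members were named in every comparison, with the other complement genes past the limit and the genes most like each member. No test between groups was possible, as each group was 1 pool. Alternatives were other cell filters, hashtag rules, TMM scaling, count minimums and clusterings, and leaving out cell classes. Intervals and floors cover counting error only.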

Additional observations from a re-analysis of the deposited data

Results flagged for a closer look

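Several member ratios had opposite signs in 2 settings, with both counting intervals clear of 0. None of these differences was tested, because each group was 1 pool. All involving cKO and WT rest on labels that *Ythdf2* counts go against and *Lyz2* counts go with.

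For IR against control in WT, the log2 ratio of *C1qb* was -0.62 in tumor and 1.66 in blood, a difference of -2.28, and that of *C5ar1* was 0.47 and -0.22, a difference of 0.69. In cKO, *C5ar1* gave 0.19 in tumor and -0.13 in blood, a difference of 0.31. Without fibroblast-like cells that tumor ratio was -0.25, the same sign as in blood.

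For cKO against WT within tumor, *C3* gave -0.82 in control and 0.12 after IR, a difference of -0.94, and *Cfp* gave -0.15 and 0.06, a difference of -0.21. Without fibroblast-like cells the *Cfp* ratio was 0.11 in control and -0.0046 after IR. With the 4-fold rule for WT the *Cfp* ratio after IR was -0.0095. Within blood, *C1qb* gave 1.17 in control and -0.42 after IR, a difference of 1.59.

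For cKO against WT between tissues in control, *C5ar1* gave 0.49 in tumor and -0.21 in blood, a difference of 0.70, and *Cfb* gave -0.98 and 0.54, a difference of -1.51. After IR the differences between tumor and blood were 0.99 for *C1qb*, 0.33 for *C5ar1*, -0.59 for *Cfb* and 0.14 for *Cfp*. In each blood group 15 to 37 cells carried a C1q UMI.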

How the results depend on the processing

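No paired analysis was possible because each group was 1 pool, with no replicate to leave out. Of 660 ratios of single members under an alternative, 512 stayed within the original interval and 647 kept their sign. Some of these could not change. Leaving out barcodes hashtagged in both tumor matrices did not touch blood, and the 4-fold rule for WT did not touch cells labelled cKO. The leaving out of cell classes, of cluster 9 and of barcodes hashtagged in both tumor matrices, and the finer division of cluster 3, were chosen after seeing the data. The cause of each shift was not tested.

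The number of members past the limit for IR in tumor was 4 in WT (from 1) with the 4-fold rule for WT, 3 without fibroblast-like cells and 3 without fibroblast-like, NK, T, B and basophil classes, where 5.21%, 5.51% and 4.89% of all genes were called, and in cKO it was 2 (from 4) with TMM, where 21.3% were. For cKO against WT in control tumor (from 0) it was 1 with the 4-fold rule, 1 with TMM, 3 without fibroblast-like cells and 1 without all those classes, where 8.1%, 4.14%, 3.1% and 3.09% were. In blood, with a minimum of 20 UMIs, it was 3 for IR in WT, 2 for cKO against WT in control and 1 after IR, and with no minimum it was 3, 3 and 1, and 1 for IR in cKO. The share of all genes called at these lower minimums was not counted, so these numbers cannot be read as a result about the members.

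The tumor C1q ratio for IR in WT, for IR in cKO and for cKO against WT in control was, in that order, -0.84, -0.97 and 0.75 without doublet removal, -0.65, -0.73 and 0.70 with TMM, -0.92, -1.39 and 1.02 without fibroblast-like cells, -0.96, -1.40 and 0.996 without all those classes, and -0.090, 0.26 and 0.27 without cluster 9. With the 4-fold rule for WT it was -1.35 for IR in WT, 0.11 for cKO against WT in control and 0.51 after IR. The ratio after IR was 0.55 without fibroblast-like cells and 0.56 without all those classes. With cells called by the order-of-magnitude threshold alone the control ratio was 0.74, and without barcodes hashtagged in both tumor matrices it was 0.80, with -0.97 for IR in cKO.

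In macrophage-like cells the C1q ratios for IR in WT and cKO and for cKO against WT in control and after IR were -0.92, -1.22, 0.79 and 0.50 at resolution 0.4, -1.72, -1.69, 0.71 and 0.74 at 1.2, and -1.56, -1.39, 0.53 and 0.70 with TMM. Clustering with the members gave -1.67, -1.60 and 0.72 for the first listed. Without cluster 9 they were 0.44, 0.33, 0.94 and 0.83, so the IR ratios changed sign, as did those of *C1qa* (0.24), *C1qb* (0.26) and *C1qc* (0.30) over all tumor cells in cKO.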
